A study of Mus musculus with 96 samples.

Results

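Striatal RNA of Htt knock-in mice was examined for the transcription factor genes that pattern the embryo: the Hoxa, Hoxb, Hoxc and Hoxd homeobox clusters and the Pax, sine oculis-related, Tbx, Gata, Nkx, Irx, Dlx and Otx families. Genes were taken by symbol, a family name followed directly by a number, and kept where at least 8 of the 96 libraries had 5 or more counts. Of 100 such genes in the table, 40 passed, among 19390 genes that passed the same rule in the whole table. The 40 comprised 8 Tbx genes, 6 Nkx, 5 Dlx, 5 Irx, 5 sine oculis-related genes such as Six3, 3 Pax, 2 Gata, 2 Otx, 2 Hoxa, 1 Hoxc and 1 Hoxd gene, and 0 of 10 Hoxb genes. On the value the rule used, the 8th highest count of a gene, Pax7 and Six2 lay just inside with 5, whereas Dlx3, Gata6 and Pax9 lay just outside with 4.

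These genes encode DNA-binding proteins that divide the embryo into regions and cell types. Hox genes specify position along the hindbrain, spinal cord and trunk, and are kept silent in the forebrain, where Polycomb complexes and the histone mark they deposit cover their clusters. Dlx, Six3, Nkx2-1 and Pax6 act in the developing forebrain itself, and several of them stay on in adult striatal neurons. Irx, Otx2 and Gata3 are known for regions next to the striatum, such as the thalamus and midbrain. Repression of developmental genes of this kind has been studied in Huntington's disease, an inherited neurodegeneration caused by a long CAG repeat in Htt, so the question asked was which of them were higher with repeat length.

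All mice were C57BL/6 and their striata were taken at 6 or 10 months of age. Tested mice were heterozygous for a knock-in Htt allele with a CAG length label of 140 (Q140), 92 (Q92), 50 (Q50) or 20 (Q20), each carrying 1 normal Htt allele, and the controls were wild types. Each of 12 groups had 8 libraries, 4 from females and 4 from males, called F1 to F4 and M1 to M4 by sex and replicate number. The wild types of an age formed a group housed with Q20 mice and a group housed with Q50 mice, pooled here as 16 libraries unless stated, while Q140 and Q92 mice were housed only with their own genotype. The labels number the replicates but do not state that each is a separate animal, so p-values measure the spread between these libraries. Library totals were 32.1 to 40.2 M counts at 6 months and 29.1 to 36.4 M at 10 months.

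Htt itself, the targeted gene, was lower in Q140 mice than in wild types by a log2 fold change of -0.14 ± 0.04 (SE; adjusted p = 0.0101) at 6 months and -0.31 ± 0.04 (adjusted p = 2.77e-07) at 10 months. Genes that mark striatal projection neurons, among them Ppp1r1b, Drd1 and Penk, were present in every group, with a mean level over 12 genes of 8.30 ± 0.16 log2 CPM (CPM, counts scaled to an equal library total) in Q140 mice and 8.80 ± 0.22 in wild types at 10 months. They stood lowest in Q20 F4, Q20 M4 and Q92 F1 at 10 months, at 6.57, 6.98 and 7.25. The summed CPM of 10 genes of the neighbouring thalamus ran from 137 to 2158 over the libraries of 10 months. The thalamus level was 5.62 ± 1.08 log2 CPM in Q20 mice, 4.64 ± 0.73 in Q50, 4.75 ± 1.34 in Q92 and 3.44 ± 0.85 in Q140 mice of that age, against 4.54 ± 1.08 in wild types. In bulk tissue fewer cells of a type and less RNA per cell cannot be told apart.

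Measured in FPKM, which divides by gene length, the families differed widely in wild-type striatum at 6 months. Dlx6 stood highest at 28.5 ± 2.52 FPKM (SD, n = 16) and Six3 followed at 21.5 ± 2.17, a gap larger than either SD. Nkx6-2 followed at 5.78 ± 0.90, Pax6 at 3.72 ± 0.64, Gata2 at 1.41 ± 0.24, Tbx3 at 0.73 ± 0.17 and Otx2 at 0.70 ± 0.34, the last pair within each other's SD. Irx2 was the leading Irx gene at 0.27 ± 0.16. The Hox genes were near the bottom, with Hoxd1 at 0.080 ± 0.076, Hoxa7 at 0.051 ± 0.039 and Hoxc4 at 0.0086 ± 0.0147.

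Hoxc4 and Hoxa7 were the 2 genes of the 40 that were higher with repeat length by all 3 criteria used to call a gene derepressed: higher in Q140 mice than in wild types, a positive slope on CAG length, and a wild-type mean under 0.5 CPM at that age. At 6 months Hoxa7 alone met them, among 20 genes under 0.5 CPM, and at 10 months both did, among 16. In Q140 mice against wild types, 4 of the 40 genes rose and 1 fell at 6 months, or 12.5%, against 21% of all genes tested called in either direction (11% higher and 10.1% lower). At 10 months 4 rose and 1 fell, again 12.5%, against 16.5% of all genes (9.09% higher and 7.44% lower). On the slope over the 32 knock-in libraries, 1 rose and 1 fell at 6 months, or 5%, against 14.9% of all genes (6.83% higher and 8.08% lower). At 10 months 2 rose and 10 fell on the slope, or 30%, against 20.8% (10.9% higher and 9.92% lower). The median log2 fold change in Q140 mice was 0.08 at 6 months and 0.03 at 10 months, and 0.01 and 0.00 over all genes. On the FPKM scale limma called 3049 genes higher and 982 lower at 10 months, against 1762 and 1442 by edgeR on counts. Hoxc4 met the count rule through Q140 libraries alone. Of the 18 libraries with 5 or more counts of Hoxa7, 1 was a wild type. The numbers of genes called therefore describe the genes that passed and are not evidence about the families.

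**Figure D1:**
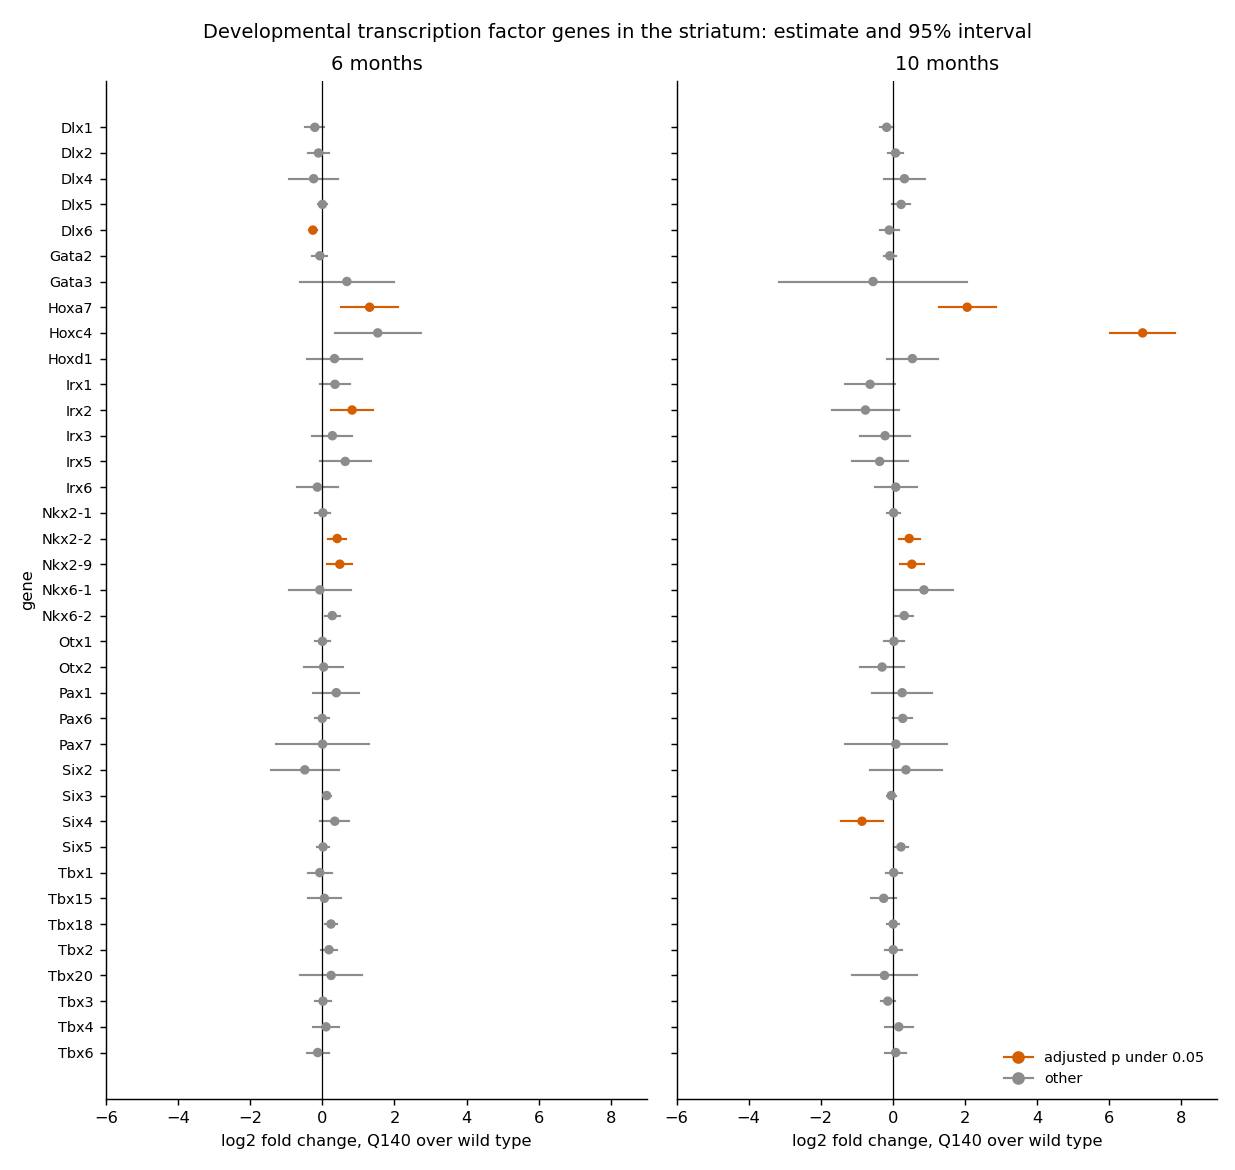
Log2 fold change of Q140 over wild type (horizontal axis) for 37 of the 40 genes at 6 and 10 months, with 95% intervals from the edgeR fit. Orange points passed the adjusted p threshold of 0.05 and grey points did not; Hoxc4 at 10 months lies far to the right at 6.93.

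Hoxc4 (ENSMUSG00000075394), a cluster gene whose product helps specify neck-level segments, was on in Q140 striatum at 10 months and close to silent in every other group. In the 8 Q140 libraries of 10 months it had 48, 62, 5 and 37 counts in F1 to F4 and 20, 32, 7 and 43 in M1 to M4, 254 in all. The 16 wild types of that age had 2 counts together, Q20 mice 3, Q50 mice 3 and Q92 mice 1. The lowest of the Q140 libraries, F3 with 0.145 CPM, was above the highest wild type at 0.0325 CPM, so the groups did not overlap. Of all genes 0.645% were apart in this way, but of the 9 libraries with 5 or more counts of Hoxc4, which put it past the count rule, 8 were these Q140 libraries, so the rule itself favoured the separation and nothing is read from that share. In FPKM, Q140 mice averaged 0.483 ± 0.293 (SD, n = 8) and wild types 0.00195 ± 0.00533 (n = 16). The log2 fold change was 6.93 ± 0.46 (95% interval 6.02 to 7.83; adjusted p = 1.5e-15), higher in 8 of 8 libraries. That test and every later test of Hoxc4 used the same counts that put it past the rule. Their p-values are therefore not independent support. Counted directly, the ratio of pooled counts per depth was 244, with an interval from counting error of 66.9 to 2027.

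Nearly all of the repeat-length signal of Hoxc4 lay in the longest allele. Its slope at 10 months, scaled to the 120 units from Q20 to Q140, was a log2 change of 8.87 ± 0.79 (adjusted p = 4.02e-09), but over Q20, Q50 and Q92 alone it was -1.64 (adjusted p = 0.684). Q140 mice exceeded Q92 mice at 10 months by 6.95 ± 0.60 (adjusted p = 3.82e-11). Hoxc4 was the 1 gene of the 40 called in that comparison, where 2.85% of all genes were. The same Q140 counts put it past the count rule, so nothing is read from that share. At 6 months Hoxc4 had 16 counts in Q140 mice, 0 to 0.185 CPM, against 10 counts in wild types, 0 to 0.102 CPM. The 6-month ranges overlapped, with a log2 fold change of 1.54 ± 0.61 (adjusted p = 0.0638), and a slope of 2.29 ± 0.80 (adjusted p = 0.0501), which passed with the thalamus level as a covariate, at 2.53 (adjusted p = 0.0431). Against Q92 mice of 6 months, which had 1 count, the difference was 3.09 ± 0.90 (adjusted p = 0.0293; 1 of the 40 genes, against 5.52% of all genes), and it was lost without Q140 F1 or any of 5 Q92 libraries.

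The Q140 effect on Hoxc4 was larger at 10 than at 6 months by a log2 difference of 5.46 ± 0.99 (adjusted p = 0.00274). It was the 1 gene of the 40 for which that difference was called, as were 0.892% of all genes. Here too the Q140 counts tested are those that put Hoxc4 past the count rule, so nothing is read from that share. None of the 40 showed a Q140 effect that differed between females and males by edgeR at either age (0% of all genes were called; unadjusted p was under 0.05 for 0 of the 40 at 6 months, against 2.19% of all genes, and for 1 at 10 months, against 4.19%). At 10 months the Hoxc4 rise was 7.41 (adjusted p = 7.6e-16) with the thalamus level as a covariate. It was 6.93 against the wild types housed with Q50 mice and 6.92 against those housed with Q20 mice. Without the 18 libraries that stood high in genes of another tissue, it was 7.23 (adjusted p = 4.6e-10). Those libraries were set aside on pituitary, liver, meninges, midbrain and hindbrain, or hypothalamus and pallidum genes, and none on thalamus genes. Among them were Q140 F2 and M2 of 10 months, at liver levels of -1.14 and -0.86 log2 CPM.

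Hoxa7 (ENSMUSG00000038236), which acts in thoracic patterning, was higher in Q140 mice at both ages, at levels of a few counts per library. At 10 months it had 0.0888 CPM at the lowest, 0.194 at the median and 0.333 at the highest in Q140 mice, against 0, 0.0324 and 0.137 in wild types. 7 of the 8 Q140 libraries were above every wild type, and the log2 fold change was 2.06 ± 0.40 (adjusted p = 0.00021). Along the series the medians were 0.0324 CPM in wild types, 0.0149 in Q20, 0.03 in Q50, 0.0608 in Q92 and 0.194 in Q140 mice, with a slope of 2.52 ± 0.49 (adjusted p = 0.000453). Total counts were 52 in Q140 mice and 23 in the 16 wild types, a counting ratio of 4.35 (2.61 to 7.44). The count rule used these same counts, so the tests of Hoxa7 are not independent of how it was chosen.

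At 6 months Hoxa7 ran from 0.0815 through a median of 0.174 to 0.258 CPM in Q140 mice, against 0, 0.0561 and 0.16 CPM in wild types. The groups overlapped, with 5 of 8 Q140 libraries above every wild type. The log2 fold change was 1.31 ± 0.40 (adjusted p = 0.0139) and the slope 1.65 ± 0.44 (adjusted p = 0.00853). It was 1.45 against the wild types housed with Q20 mice alone (adjusted p = 0.0417) and 1.18 against those housed with Q50 mice alone (adjusted p = 0.0623). In males alone the 6-month difference was 0.70 and missed the threshold (adjusted p = 0.508), while in females alone Hoxa7 passed it, in the same direction (adjusted p = 0.0254). Hoxa7 was higher in Q140 than in Q92 mice by 1.28 at 10 months (adjusted p = 0.11), which missed the threshold. Over Q20, Q50 and Q92 alone its slope at 10 months was 1.83 (adjusted p = 0.505).

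**Figure D2:**
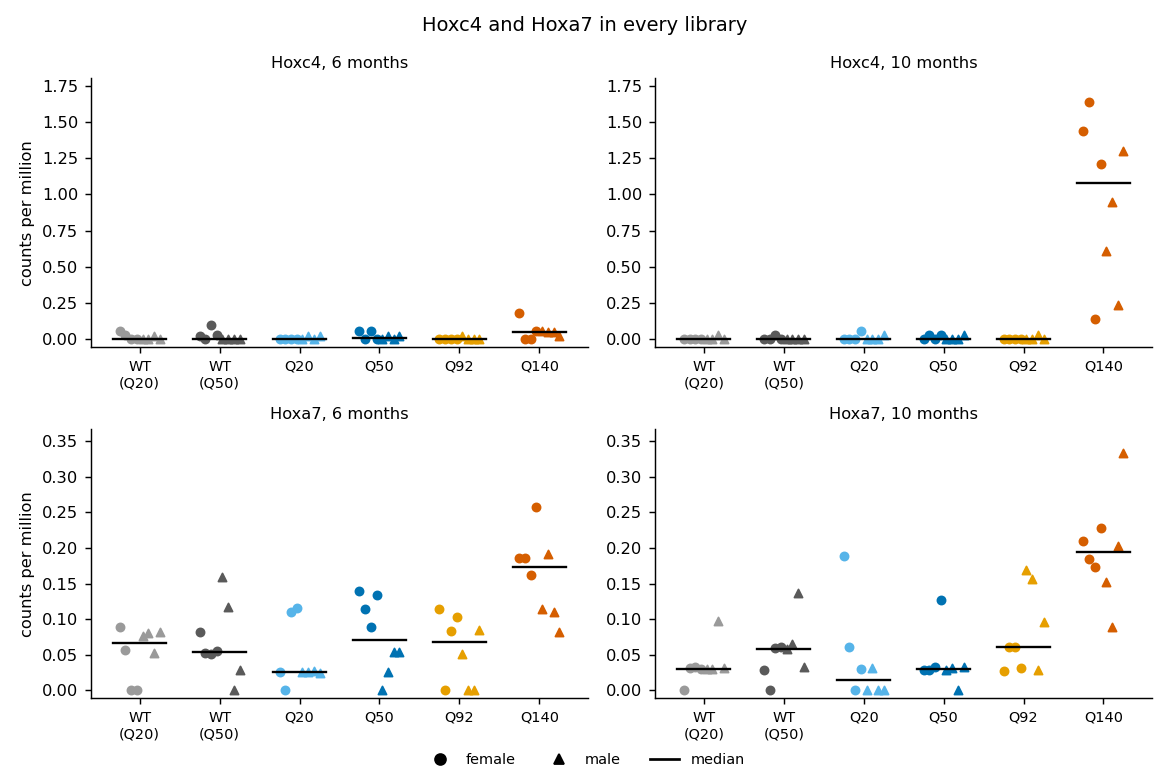
CPM of Hoxc4 and Hoxa7 in each library at 6 and 10 months, by group, with 1 point per library and a bar at the median. Hoxc4 is raised in all 8 Q140 libraries of 10 months, between 0.145 and 1.64 CPM, and Hoxa7 in Q140 mice of both ages.

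The longest unbroken stretch outside annotated exons in the 250 bases upstream of Hoxa7 is shown because the gene rose at both ages. CG dinucleotides, the sites of DNA methylation and, where dense, a feature of Polycomb targets, are in capitals. The stretch is from RefSeq, GRCm38.p6, chr6:52218712-52218823, minus strand, 112 bases written 5′ to 3′ with 4 CG.
Hoxa7: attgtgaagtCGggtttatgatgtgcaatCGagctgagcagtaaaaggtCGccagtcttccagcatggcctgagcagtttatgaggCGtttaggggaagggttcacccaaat
The whole 250 bases upstream hold 7 CG, and 46.3% of 32841 such windows hold at least as many. The Hoxc4 window, on chromosome 15, holds 8 CG (43% of windows hold at least as many) and lies wholly within an annotated exon of the gene, so it is not shown. Over the 34 windows of the 27 genes with an entry the median was 13.5 CG, against 6 over all windows. The letters TGATNNAT, a form of the joint PBX and HOX motif, were looked for on both strands. They were in 0 of the windows of Hoxc4, Hoxa7, Nkx2-2 and Nkx2-9, in 2 of the 34 windows (5.88%), those of Tbx6 and Nkx6-2, and in 7.69% of all windows.

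The other Hox genes that passed were not called in Q140 mice. Hoxd1, which acts in hindbrain and sensory neuron development, had log2 fold changes in Q140 mice of 0.34 ± 0.38 (adjusted p = 0.584) at 6 months and 0.54 ± 0.36 (adjusted p = 0.339) at 10 months. Its slope on repeat length was 0.21 ± 0.39 (adjusted p = 0.778) at 6 months and -0.015 ± 0.374 (adjusted p = 0.986) at 10 months. Whether the counting used strand is not given in the sources used here, so reads of a gene and its antisense partner cannot be told apart, which holds for Hoxa7 with Hoxaas3, Nkx2-2 with Nkx2-2os and Dlx6 with Dlx6os1.

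Of the Hox genes that missed the count rule, Hoxc5 and Hoxc6, which lie next to Hoxc4, had most of their counts of that age in the Q140 group of 10 months. The genes named here were chosen after their values were seen, from an edgeR fit with no filter on low counts. In that fit 48 family genes below the rule could be tested at 10 months, and 8 were higher and 0 lower in Q140 mice, where 5.79% of all genes were higher. Genes near 0 counts in wild types can hardly be called lower, and that share covers genes of every abundance. Nothing is read from the comparison. Hoxc5 had 117 counts in the 8 Q140 libraries and 1 in the 16 wild types, a counting ratio of 225 (39.6 to 8960). Hoxc6 had 35 against 1, a ratio of 67.3 (11.3 to 2733). Hoxc5 shares its strand and part of its annotated span with Hoxc6, Hoxc8, Hoxc9 and Hoxc10, so its counts and those of Hoxc6 may be divided by the quantifier. Further along the cluster Hoxc8 had 0 counts in Q140 mice and 0 in wild types of 10 months, Hoxc9 had 0 and 1, and Hoxc10 had 1 and 1.

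Outside that cluster the counts were smaller. Nkx2-3, a gut and spleen gene, had 23 counts in Q140 mice and 2 in wild types at 10 months, a ratio of 22.1 (5.46 to 193). Hoxd8 had 14 against 1 (26.9; 4.10 to 1138), Tbx5, a heart and forelimb gene, 10 against 1 (19.2; 2.74 to 834), and Hoxa5 10 against 3 (6.41; 1.65 to 36.2). Pax2, a kidney and midbrain-boundary gene, had 16 against 4 (7.69; 2.48 to 31.6) and Gata6, an endoderm gene, 31 against 23 (2.59; 1.46 to 4.65). At 6 months 2 of 48 genes below the rule were higher, where 6.74% of genes of every abundance were. They were Hoxc6 with 11 counts against 1 (21.8; 3.17 to 940) and Tbx5 with 5 against 1 (9.93; 1.11 to 469).

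**Figure D3:**
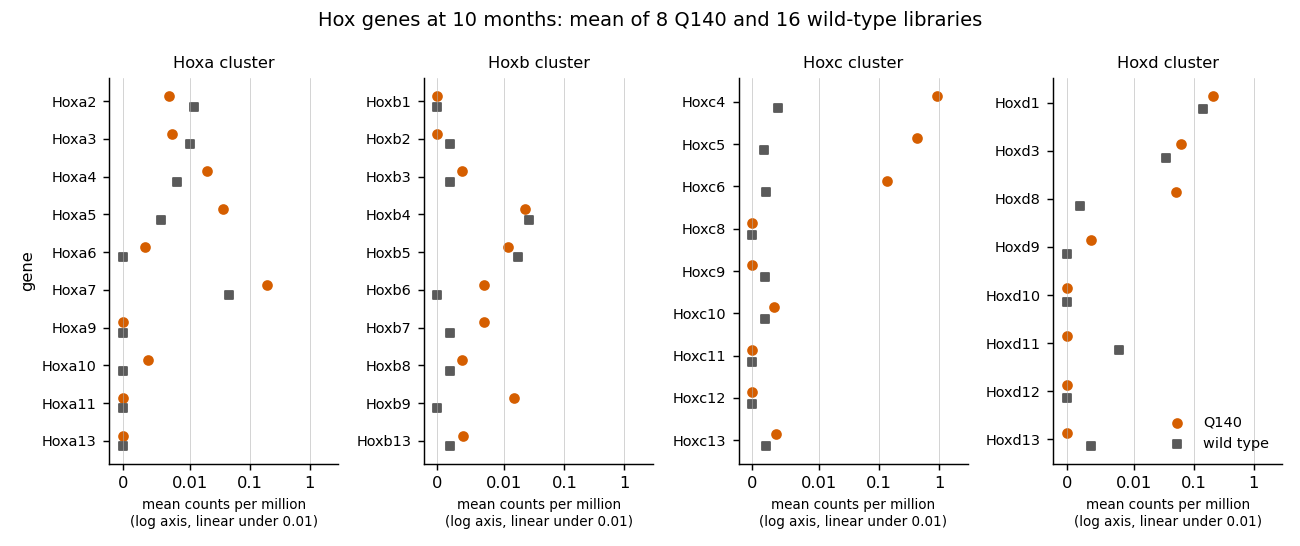
Mean CPM at 10 months (horizontal log axis, linear under 0.01) of Hox genes of each cluster, for 8 Q140 and 16 wild-type libraries. In the Hoxc cluster Hoxc4, Hoxc5 and Hoxc6 stand apart between the groups, with 254, 117 and 35 counts in Q140 mice against 2, 1 and 1 in wild types, while Hoxc8 to Hoxc13 are at or near 0 in both.

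Of the Nkx genes, Nkx2-2 and Nkx2-9 were modestly higher in Q140 mice at both ages. Nkx2-2 (ENSMUSG00000027434) patterns the ventral neural tube and drives oligodendrocyte precursors to mature. At 6 months it had 4.38 CPM at the lowest, 5.78 at the median and 6.72 at the highest in Q140 mice, against 2.66, 4.35 and 6.04 in wild types. At 10 months it had 3.83, 5.61 and 7.69 CPM in Q140 mice, against 2.80, 3.89 and 5.36 in wild types. The groups overlapped, and 4 of 8 Q140 libraries were above every wild type at each age. The log2 fold change was 0.41 ± 0.13 (adjusted p = 0.0167) at 6 months and 0.45 ± 0.15 (adjusted p = 0.0287) at 10 months. The slope on repeat length missed the threshold, at 0.34 (adjusted p = 0.0901) and 0.18 (adjusted p = 0.483), and passed at 10 months with the thalamus level as a covariate, at 0.57 (adjusted p = 0.0335).

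Nkx2-9 (ENSMUSG00000058669), a ventral neural tube gene beside the floor plate, had 0.759 CPM at the lowest, 1.05 at the median and 1.61 at the highest in Q140 mice of 6 months, against 0.421, 0.814 and 1.34 in wild types. At 10 months it had 0.55, 0.95 and 1.39 CPM in Q140 mice, against 0.393, 0.651 and 0.987 in wild types. The log2 fold changes were 0.48 ± 0.18 (adjusted p = 0.0469) and 0.52 ± 0.17 (adjusted p = 0.0308), higher than the wild-type median in 7 of 8 libraries at each age. The medians along the series at 10 months were 0.651 CPM in wild types, 1.07 in Q20, 0.698 in Q50, 0.809 in Q92 and 0.95 in Q140 mice, and the Q20 median was above the Q140 one. With Q20 mice in place of wild types the 10-month difference was -0.12 (adjusted p = 0.725), and for Nkx2-2 it was 0.17 (adjusted p = 0.523). Neither gene met the criteria for derepression.

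These calls lay near the threshold. Nkx2-2 lost its call at 6 months without Q140 F1, at 0.36 (adjusted p = 0.0528), and at 10 months without Q140 F2, at 0.42 (adjusted p = 0.0572), or M4, at 0.37 (adjusted p = 0.108). Nkx2-9 lost its call at 10 months without Q140 F1, M3 or M4 and at 6 months in 20 of 48 fits that left out a library. Against the wild types housed with Q20 mice alone, the 6-month differences were 0.29 for Nkx2-2 (adjusted p = 0.23) and 0.28 for Nkx2-9 (adjusted p = 0.448), and against those housed with Q50 mice alone 0.53 (adjusted p = 0.00761) and 0.69 (adjusted p = 0.0145). At 10 months the order was the other way, with 0.54 (adjusted p = 0.0292) and 0.61 (adjusted p = 0.0372) against the Q20-housed and 0.36 (adjusted p = 0.194) and 0.44 (adjusted p = 0.179) against the Q50-housed wild types. With the thalamus level as a covariate both calls were lost at 6 months, at 0.37 for Nkx2-2 (adjusted p = 0.0506) and 0.36 for Nkx2-9 (adjusted p = 0.18), beside 5 of 10 thalamus genes that rose. At 10 months the differences with that covariate were 0.66 (adjusted p = 0.00014) and 0.69 (adjusted p = 0.00259). Genes of oligodendrocyte precursors, the cells in which Nkx2-2 is known to act, had a mean level over 8 genes of 4.84 ± 0.04 log2 CPM in Q140 mice and 4.77 ± 0.11 in wild types at 6 months, and 4.77 ± 0.09 and 4.73 ± 0.13 at 10 months. Of these 8 genes 1 was called, higher, at 6 months. Their summed CPM ran from 288 to 349 in Q140 mice and from 256 to 336 in wild types at 10 months, and their part in the Nkx2-2 difference was not tested.

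The stretches upstream of both Nkx genes are shown because they moved together, again from RefSeq, GRCm38.p6, 5′ to 3′, with CG in capitals. Nkx2-2 is chr2:147186456-147186652, minus strand, 197 bases with 6 CG outside annotated exons, and Nkx2-9 is chr12:56613285-56613534, minus strand, 250 bases with 13 CG.
Nkx2-2: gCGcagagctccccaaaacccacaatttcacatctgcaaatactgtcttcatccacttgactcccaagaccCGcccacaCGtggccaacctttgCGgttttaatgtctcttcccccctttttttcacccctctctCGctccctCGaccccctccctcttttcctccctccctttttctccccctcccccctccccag
Nkx2-9: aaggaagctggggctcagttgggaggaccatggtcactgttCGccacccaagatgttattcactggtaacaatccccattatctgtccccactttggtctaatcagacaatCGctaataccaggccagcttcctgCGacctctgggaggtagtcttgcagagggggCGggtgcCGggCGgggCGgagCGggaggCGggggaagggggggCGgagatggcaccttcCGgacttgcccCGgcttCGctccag
Of 32841 windows, 31.5% hold at least 13 CG, as the Nkx2-9 window does.

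The remaining Nkx genes were not called in Q140 mice. Nkx6-2, active in myelinating oligodendrocytes and the most abundant Nkx gene, had a log2 fold change of 0.28 ± 0.10 (adjusted p = 0.0529) at 6 months and 0.31 ± 0.13 (adjusted p = 0.0787) at 10 months. Its gene body overlaps Inpp5a on the other strand. Nkx2-1, which specifies cholinergic and other interneurons, had 0.01 ± 0.11 (adjusted p = 0.944) and 0.02 ± 0.09 (adjusted p = 0.919). Nkx6-1, a motor neuron progenitor gene, had 0.86 ± 0.40 at 10 months (adjusted p = 0.143). With the thalamus level as a covariate Nkx6-2 and Nkx6-1 passed at 10 months, at 0.44 (adjusted p = 0.00655) and 1.19 (adjusted p = 0.029).

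The Dlx genes, which drive the differentiation of GABAergic neurons of the ventral forebrain, included the highest of the 40 genes in FPKM, and 1 of 5 was called in Q140 mice, at 6 months. Dlx6 (ENSMUSG00000029754) had 21.8 CPM at the lowest, 29.7 at the median and 32.7 at the highest in Q140 mice of 6 months, against 29.2, 34.2 and 41.3 CPM in wild types. All 8 Q140 libraries were below the wild-type median and 4 were below every wild type, with a log2 fold change of -0.26 ± 0.06 (adjusted p = 0.000601). It was -0.18 against the wild types housed with Q20 mice alone (adjusted p = 0.0618) and -0.34 against those housed with Q50 mice alone (adjusted p = 0.000106). At 10 months it had 25, 29.6 and 39.9 CPM in Q140 mice and 23.8, 33 and 38 CPM in wild types, a change of -0.10 ± 0.14 (adjusted p = 0.682). With the thalamus level as a covariate the 10-month change was -0.30 (adjusted p = 0.0466). The slope at 6 months was -0.22 ± 0.08 (adjusted p = 0.0461) and was lost in 20 of the 32 fits that left out 1 library.

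The antisense neighbours Dlx6os1 and Dlx1as were also lower in Q140 mice at 6 months, by -0.31 ± 0.08 (adjusted p = 0.00255) and -0.30 ± 0.10 (adjusted p = 0.0262). Dlx1, on the other strand of Dlx1as, had -0.21 ± 0.14 (adjusted p = 0.293). Dlx5 had 0.00 ± 0.06 (adjusted p = 0.987), Dlx2 -0.11 ± 0.14 (adjusted p = 0.644) and Dlx4 -0.24 ± 0.34 (adjusted p = 0.671). The projection neuron genes, whose cells come from the same Dlx-expressing progenitors, moved with Dlx6 at 6 months: 11 of 12 fell, with a mean level of 8.31 ± 0.19 log2 CPM in Q140 mice and 8.89 ± 0.14 in wild types, and a summed CPM of 4051 to 5981 against 7067 to 9661. At 10 months 8 of the 12 fell, with a median of -0.61 at both ages, while Dlx6 was not called. Their part in the Dlx6 difference was not tested.

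**Figure D4:**
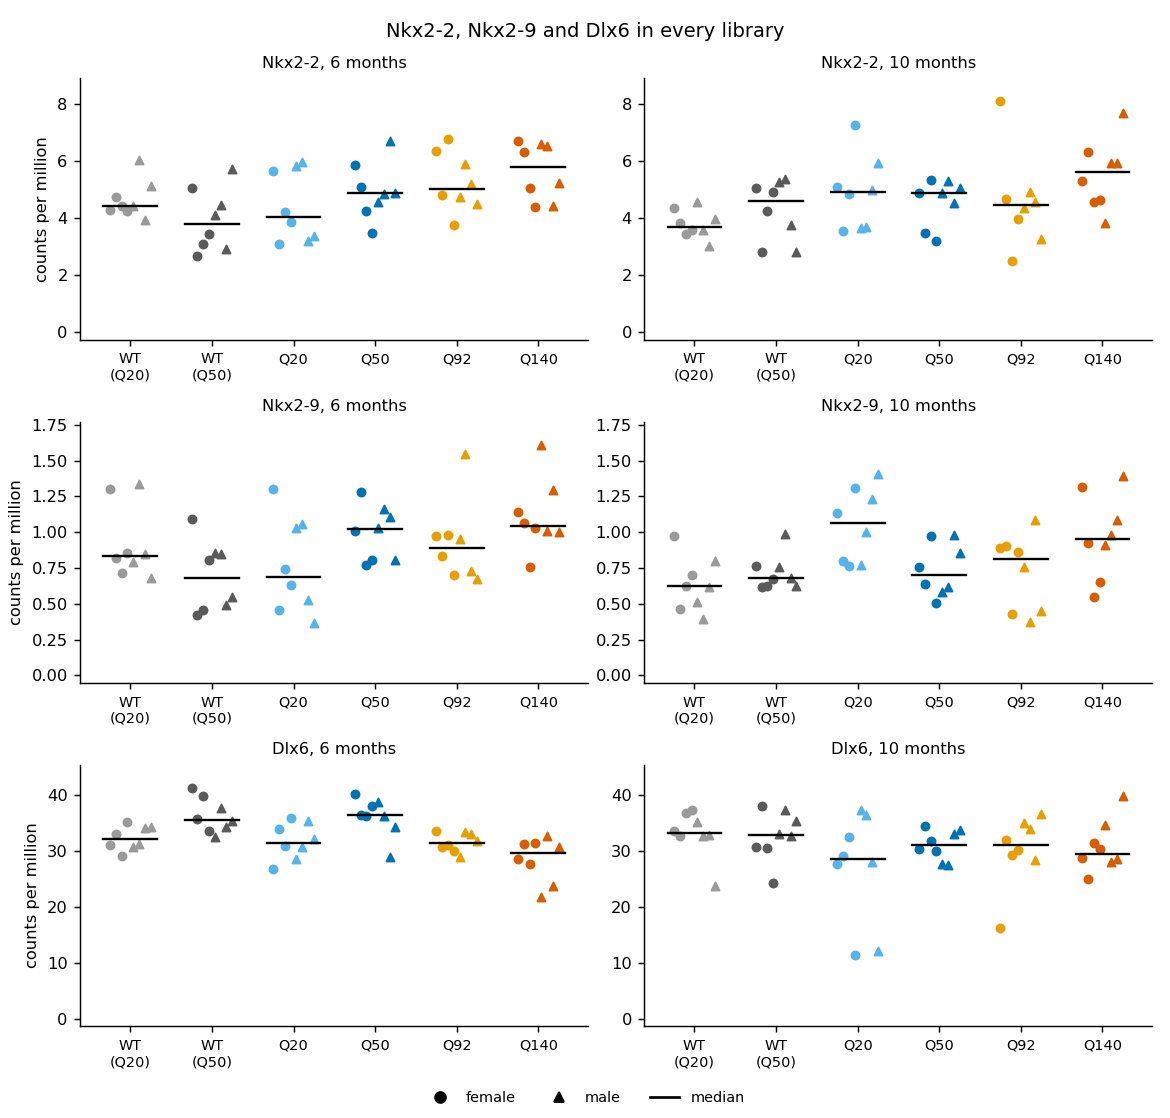
CPM of Nkx2-2, Nkx2-9 and Dlx6 in each library at 6 and 10 months, by group, with 1 point per library and a bar at the median. The Q140 and wild-type points overlap in every panel, with Dlx6 between 21.8 and 32.7 CPM in Q140 mice of 6 months against 29.2 to 41.3 CPM in wild types.

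The 10 falls with repeat length at 10 months included 4 of the 5 Irx genes, where 9.92% of all genes fell on that slope. Irx1, Irx2, Irx3 and Irx5, which pattern the diencephalon and hindbrain, had slopes of -1.36, -1.95, -1.45 and -1.35 (adjusted p = 0.0054, 0.0051, 0.00173 and 0.00828). Otx2, which marks forebrain and midbrain territory, had -1.07 ± 0.31 (adjusted p = 0.0125) and Six4, a muscle and sensory placode gene, -1.33 ± 0.32 (adjusted p = 0.00361). Gata3, which marks GABAergic neurons of the midbrain, had -3.58 ± 1.08 (adjusted p = 0.0175) and Tbx3 -0.36 ± 0.11 (adjusted p = 0.0175).

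The levels of Irx3, whose slope had the smallest p of the falls, were high in Q20 mice. Its lowest, median and highest levels were 0.0304, 0.316 and 0.589 CPM in wild types, 0.367, 0.631 and 1.49 in Q20 mice, 0.19, 0.445 and 0.904 in Q50, 0.181, 0.352 and 0.859 in Q92 and 0.0979, 0.287 and 0.343 in Q140 mice. All Q140 libraries lay within the wild-type range. Against wild types, Irx3 in Q140 mice had a log2 fold change of -0.22 ± 0.36 (adjusted p = 0.747). Six4 was the exception, with 0.424, 0.766 and 1.19 CPM in Q140 mice against 0.658, 1.32 and 2.66 CPM in wild types. All 8 Q140 libraries were below the wild-type median, and the change was -0.86 ± 0.30 (adjusted p = 0.0422), lost in 10 of 48 fits that left out a library and against either wild-type cohort alone (-0.90, adjusted p = 0.0662, and -0.82, adjusted p = 0.12).

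Genes of several tissues and cell types moved along the series as well. All 10 of the thalamus list had a negative slope past the threshold at 10 months, and their summed CPM ran from 303 to 2158 in Q20 mice and from 137 to 665 in Q140 mice, against 152 to 1271 in wild types. On the same slope 3 of 8 genes of the hypothalamus and pallidum fell, with a median of -0.54, and 2 of the 6 tested midbrain and hindbrain genes fell, with a median of -0.55. Of the cell type lists 5 of 8 vessel genes, 4 of 8 astrocyte genes and 4 of 8 oligodendrocyte genes fell. Of the cortex list 5 of 10 genes rose, with a median of 0.90. Beside these lists, 9.92% of all genes fell and 10.9% rose on that slope. The part of these lists in the falls was not tested, apart from the fits with marker levels as covariates. With the thalamus level as a covariate the slopes were -0.35 for Irx1, -0.38 for Irx2, -0.45 for Irx3, -0.47 for Irx5, -0.06 for Otx2, -0.08 for Six4, and 0.093 for Gata3, and none of these passed (smallest adjusted p = 0.296). Tbx3, which acts in limb and hypothalamus, had -0.45 (adjusted p = 0.0232) with the covariate. It had -0.29 (adjusted p = 0.122) without the libraries high in genes of another tissue, of which none was set aside on thalamus genes. The Q140 difference of Six4 became -0.15 (adjusted p = 0.501). Gata3 lost its call without Q20 F4 (-2.74, adjusted p = 0.0853) or Q20 M4 (-2.16, adjusted p = 0.14).

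**Figure D5:**
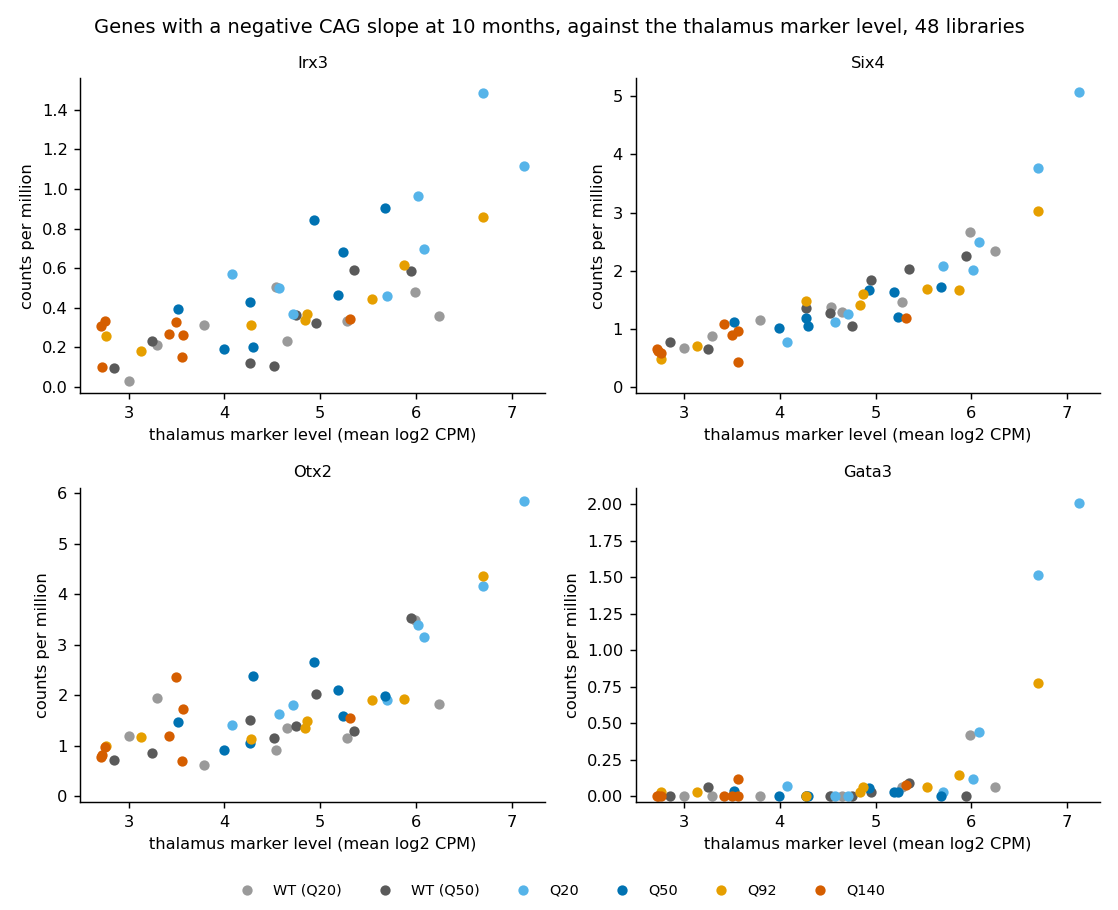
CPM of Irx3, Six4, Otx2 and Gata3, with a negative CAG slope at 10 months (vertical axis) against the thalamus marker level, the mean log2 CPM of 10 genes, with 1 point for each of 48 libraries, coloured by group. The highest value of each gene belongs to a Q20 library with a high thalamus level, and Q140 libraries sit mostly at the low end, at a mean level of 3.44.

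Irx2 (ENSMUSG00000001504) rose at 6 months, in the direction opposite to its 10-month slope. It had 0.286 CPM at the lowest, 0.523 at the median and 1.93 at the highest in Q140 mice, against 0.0864, 0.357 and 0.871 CPM in wild types, a log2 fold change of 0.82 ± 0.30 (adjusted p = 0.0434). The groups overlapped, with 2 of 8 Q140 libraries above every wild type. Without Q140 M1, the highest, the difference was 0.44 (adjusted p = 0.321), and with the thalamus level as a covariate it was 0.13 (adjusted p = 0.734). It was 0.41 against the wild types housed with Q20 mice alone (adjusted p = 0.51) and 1.24 against those housed with Q50 mice alone (adjusted p = 0.0114). The thalamus level at 6 months was 4.68 ± 0.97 log2 CPM in Q140 mice and 3.91 ± 0.91 in wild types, and 5 of its 10 genes rose.

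Besides Six4, no gene of the Six3, Pax, Tbx, Gata and Otx families was called in Q140 mice by this test. Six3, which directs the differentiation of indirect-pathway projection neurons, had 55.2 CPM at the lowest, 60.1 at the median and 68.9 at the highest in Q140 mice of 6 months, against 48.9, 56.5 and 65.1 in wild types. Its log2 fold change was 0.12 ± 0.06 (adjusted p = 0.139) at 6 months and -0.04 ± 0.07 (adjusted p = 0.721) at 10 months. Pax6, kept on in some adult neurons and astrocytes, had 0.00 ± 0.10 (adjusted p = 0.984) and 0.27 ± 0.14 (adjusted p = 0.175). At 10 months Pax6 passed with the thalamus level as a covariate, at 0.46 (adjusted p = 0.00295), and without the 3 libraries low in projection neuron genes, at 0.27 (adjusted p = 0.0277). Gata2, of midbrain GABAergic neurons and blood precursors, had -0.07 ± 0.11 (adjusted p = 0.692) and -0.08 ± 0.08 (adjusted p = 0.557), and Otx1, of cortex and midbrain, 0.00 ± 0.11 (adjusted p = 0.992) and 0.03 ± 0.14 (adjusted p = 0.923). Tbx18, of pericytes and other mural cells, had 0.24 ± 0.09 (adjusted p = 0.0528) at 6 months and 0.01 ± 0.08 (adjusted p = 0.966) at 10 months. Six5 had 0.22 ± 0.10 at 10 months (adjusted p = 0.0997). Pax1, Pax7, Six2, Irx6, Tbx1, Tbx2, Tbx4, Tbx6, Tbx15 and Tbx20 were called in no comparison, and Pax7, Six2 and Tbx20 had medians under 0.1 CPM in wild types.

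With shorter repeats 0 of the 40 genes were called by edgeR at an adjusted p under 0.05, and for each comparison the counts at an unadjusted p under 0.05 are set beside the share of all genes at that same p. In Q92 mice at 6 months 14 of the 40 had such a p, against 20.2% of all genes (4.37% called after adjustment). DESeq2 called 2 of the 40 there, both higher, among them Irx2 at 0.91, and 6.36% of all genes. Other genes moved in the same mice: 7 of the 10 thalamus genes were higher, with a median log2 fold change of 1.16 and a level of 5.11 ± 0.68 log2 CPM in Q92 mice against 3.91 ± 0.91 in wild types, and 6 of the 12 projection neuron genes were lower. At 10 months 1 of the 40 had such a p in Q92 mice, against 8.81% of all genes (0.356% called). In Q50 mice 4 did at 6 months, against 2.5% of all genes (0.0567% called), and 0 at 10 months, against 3.33% (0.0567% called). In Q20 mice 0 did at 6 months, against 1.98% (0.0206% called).

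In Q20 mice of 10 months 16 of the 40 had an unadjusted p under 0.05, against 15.2% of all genes (0.0361% called). All 16 were higher in Q20 mice than in wild types of their cohort. The smallest p was for Irx3 at 1.33 and Nkx2-9 at 0.73 (adjusted p = 0.214 each). The thalamus level was 5.62 ± 1.08 log2 CPM in Q20 mice and 4.54 ± 1.08 in the pooled wild types of both cohorts. DESeq2 and limma on FPKM called 0 of the 40 in Q50 and Q20 mice, and limma 0 in Q92 mice. Between the Q50-housed and the Q20-housed wild types edgeR called 0 of the 40 at either age. At 6 months 10 of the 40 had an unadjusted p under 0.05, against 14% of all genes (0% called), beside a median of -1.11 over the thalamus genes, and at 10 months 2 did, against 9.01% (0.289% called). DESeq2 called Six4 at -0.94 at 6 months, with 0.959% of all genes, and Dlx2 at 0.48 at 10 months, with 0.557%. The part of the thalamus genes in these differences was not tested.

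Genes that work with these factors were counted as well. A list of 35 Polycomb and related genes was used, not all of which encode repressors. Of these, 6 rose and 5 fell in Q140 mice at 6 months (against 11% of all genes higher and 10.1% lower). At 10 months 10 rose and 3 fell (against 9.09% and 7.44%). Sfmbt2, a Polycomb protein, rose by 1.25 ± 0.09 (adjusted p = 2.72e-15) and 1.60 ± 0.10 (adjusted p = 4e-16). The chromobox gene Cbx8 rose by 0.61 at 6 months and by 0.85 at 10 months, and Epop fell by 0.79 and 0.61. On the slope 6 of the 35 rose and 4 fell at 6 months (against 6.83% and 8.08%), and 10 rose and 3 fell at 10 months (against 10.9% and 9.92%). The core enzymes Ezh1 and Ezh2 were not called in Q140 mice at either age.

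Of 23 partner genes, cofactors that bind DNA or are recruited with these factors, 2 rose and 7 fell in Q140 mice at 6 months and 3 rose and 3 fell at 10 months, where 21% and 16.5% of all genes were called. On the slope 1 rose and 3 fell at 6 months and 3 rose and 2 fell at 10 months, where 14.9% and 20.8% of all genes were called. Meis1, a Hox cofactor, rose by 0.18 ± 0.05 (adjusted p = 0.00891) at 6 months and 0.32 ± 0.08 (adjusted p = 0.00265) at 10 months, and Eya1, a transcriptional coactivator, by 0.23 and 0.38. Lmo2, which bridges Gata complexes, fell by 0.65 ± 0.06 (adjusted p = 1.56e-12) and 0.58 ± 0.11 (adjusted p = 0.000187), and Meis2, a marker of striatal projection neurons, fell by 0.35 ± 0.05 at 6 months (adjusted p = 3.2e-06). Of 18 antisense transcripts of these loci, 16 were in the table and 6 could be tested; 2 rose and 2 fell at 6 months (21% of all genes called), with Six3os1 among the risers at 0.16 ± 0.06 (adjusted p = 0.043), and 0 passed at 10 months by edgeR (16.5% of all genes called), where 1 had an unadjusted p under 0.05, as did 29.2% of all genes.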

How the data were processed

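Total RNA of striatum was extracted with a column kit, an enriched RNA subfraction was sequenced by Illumina methods per the labels' protocols, and CASAVA 1.8.2 is the tool named in the submitters' processing notes; no source used here names the aligner, quantifier, genome build or strand setting. The authors deposited a table of expected counts (estimated reads per gene, not normalized; 27.7% of non-zero values fractional at a tolerance of 0.001) and a table of FPKM values, which the authors scaled to transcript length and sequencing depth as the unit's name implies. Of 39179 identifiers 37607 had a symbol in the GENCODE M21 annotation, used for names and overlaps; rows without a symbol held 0.321% of counts. Totals were 36.6 ± 1.59 M counts at 6 months and 32.3 ± 1.51 M at 10 months (SD, n = 48 each).

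Expected counts were rounded and tested two-sided with the edgeR 4.0.16 quasi-likelihood F test (robust, TMM) in R 4.3.3, with Benjamini-Hochberg adjustment over 19390 genes and a threshold of 0.05. Each age was fitted over 48 libraries in 6 groups plus sex. Q140 and Q92 were set against the mean of both wild-type groups, Q50 and Q20 against the wild types of their own cohort. The slope on CAG length used 32 knock-in libraries and is printed per 120 units. The comparison of ages used 96 libraries, and that of the sexes groups split by sex. CPM values rest on TMM-adjusted library totals, and levels of marker lists are means of log2 CPM with a prior count of 2. Ratios of pooled counts carry exact 95% intervals that cover counting error only. Values after ± are SDs for levels and standard errors for log2 fold changes. The scripts were tested on simulated data.

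The genes, lists and criteria were chosen with earlier results of these data known. Values of a few of these genes are not reported here. Genes were named where called in Q140 or Q92 mice or on the slope, as the most abundant of a family, at the edge of the count rule, and up to 4 per list. Alternatives covered normalization, filters, DESeq2 1.42.0, limma 3.58.1 on log2(FPKM + 1) and log2(FPKM + 0.1), covariates, single sexes, other references and libraries left out; 1, without the 3 libraries low in projection neuron genes, was chosen after seeing the data. The L number of a library name was tried as a factor, its meaning not being stated. Promoter windows are the 250 bases before RefSeq starts on GRCm38.p6; no coordinates of the count table were used.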

Additional observations from a re-analysis of the deposited data

Results flagged for a closer look

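For each of 13 called genes, a library was listed where its CPM stood far from the other 7 of its group, the gap to the nearest, as a share of the group's range, exceeding Dixon's 95% critical value. Of 156 groups, 25 had such a library; chance lists about 1 in 20 where values are normally distributed, and the rate for genes at 0 or 1 counts, where a single count is always listed, was not measured.

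Q92 F1 at 10 months, which was low in projection neuron genes and high in thalamus genes, was listed most often. It was low for Dlx6 at 16.2 CPM and high for Gata3 at 0.776, Irx5 at 0.693, Nkx2-2 at 8.09 and Otx2 at 4.35. Among Q20-housed wild types of 10 months, M4 was low for Dlx6 at 23.8 CPM and high for Gata3 at 0.416 and Otx2 at 3.49, and M3 was high for Hoxa7 at 0.0976. Q50 F1 at 10 months was high for Irx1 at 1.87 and Irx2 at 2.77.

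In Q140 mice, M1 at 6 months was high for Gata3 at 0.230 CPM and Irx2 at 1.93, and F1 at 6 months for Hoxc4 at 0.185. Hoxa7 was high in Q20 F1 at 0.189 CPM and in Q50 F4 at 0.127, both at 10 months. The other Hoxc4 entries stood for single or few counts: 0.0257 CPM in Q92 M1 at 6 months, 0.0292 in Q92 M3 at 10 months, 0.0325 in Q20-housed wild type M3 at 10 months, and 0.102 at 6 months and 0.0296 at 10 months in Q50-housed wild types F3.

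Irx5 was high in Q50 M4 at 6 months at 0.430 CPM, Nkx2-9 in Q92 M2 at 6 months at 1.54 and in Q50-housed wild type M2 at 10 months at 0.987, and Otx2 in Q50-housed wild type F4 at 10 months at 3.53. The Hoxc4 difference between Q140 and wild type was larger at 10 than at 6 months by 5.46 on the log2 scale.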

How the results depend on the processing

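Hoxc4 in Q140 mice against wild types at 10 months kept its call under all 16 alternatives that tested it and in 48 of 48 fits that left out a library, with log2 fold changes of 5.93 to 7.68 on counts; it was not tested under the stricter filters (filterByExpr and a CPM of at least 1 in 8 libraries). Hoxa7 at 10 months kept its call in 15 of the 15 alternatives that tested it and in 48 of 48 fits that left out a library. It had no adjusted p there under DESeq2 or the stricter filters. At 6 months Hoxa7 lost its call in 4 of the 15 that tested it. On the log2(FPKM + 1) scale, which understates low genes, these rises were 0.54 for Hoxc4 and 0.11 for Hoxa7. All these fits used the libraries whose counts put both genes past the count rule, so the calls kept are not independent support.

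The direction changed for Gata3 on the 10-month slope with the thalamus level as a covariate (0.093). It changed for Hoxc4 on that slope without Q140 mice (-1.64), a fit that drops the group with most of its counts. The same held for Irx2 in Q140 mice of 6 months with 3 marker levels (-0.056). Nkx2-9 changed direction in Q140 mice of 10 months against Q20 mice (-0.12). The cause of these changes was not tested.

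The number of the 40 genes called in Q140 mice at 6 months, 5, became 3 with a CPM filter of 1, in males or with no filter, 2 against Q20 mice or with the thalamus level, 1 in females, with 3 marker levels or against the Q20-housed wild types, and 8 against the Q50-housed wild types. At 10 months, 5 became 3 with the CPM filter, filterByExpr or without libraries high in other tissues, 2 in females, in males or against the Q50-housed wild types, 8 with the thalamus level, 9 without libraries low in projection neuron genes and 13 against Q20 mice. On the 6-month slope, 2 became 1 with CAG length as a rank, the CPM filter, DESeq2, the L number, females, filterByExpr, no filter, 3 marker levels or without libraries high in other tissues, and 0 in males or without Q140 mice. On the 10-month slope, 12 became 5 with the CPM filter, 1 in females, 6 in males or without libraries high in other tissues, 4 with the thalamus level, 3 with 3 marker levels and 0 without Q140 mice. Q140 against Q92, 1 at each age, became 0 at 6 months with the CPM filter, DESeq2, the L number, either sex or filterByExpr, 3 with the thalamus level and 2 with 3 marker levels or without libraries high in other tissues; at 10 months it became 0 with the CPM filter or filterByExpr, 2 with the L number or limma on log2(FPKM + 1) and 3 with the thalamus level. The difference between ages, 1, became 0 with the CPM filter, DESeq2, either sex or filterByExpr, 2 with the thalamus level and 3 without libraries low in projection neuron genes. Q92 at 6 months, 0, became 1 with the CPM filter, 2 with DESeq2, the L number or the replicate block, and 6 against the Q50-housed wild types; Q20 at 10 months, 0, became 11 with the L number. Leaving out each library gave 3 to 7 and 2 to 5 in Q140 mice at 6 and 10 months. It gave 0 to 2 in Q92 mice at 6 months, 0 to 2 and 1 to 2 for Q140 against Q92, and 1 to 4 and 9 to 12 on the slopes. Calls over all genes moved too. With the L number, Q20 mice of 10 months had 1713 genes higher and 1362 lower, against 6 and 1 in the main fit. Against Q20 mice, Q140 mice of 10 months had 2161 genes higher and 2509 lower, against 1762 and 1442 in the main fit. Shifts in the number of the 40 genes called are therefore not read as results about those genes.

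With the replicate block the counts in Q140 mice were 6 and 4 and on the slopes 2 and 11. Replicate numbers did not pair the libraries: over 240 same-numbered pairs the correlation of deviations from group means ran from -0.71 to 0.60, with a median of 0.0087. Depth limits the Hox genes most. Of the 32 wild-type libraries 0 had 5 counts of Hoxc4 and 1 had 5 of Hoxa7. Differences of a few counts between single libraries could therefore not be resolved.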

Other observations

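Within the 8 Q140 libraries of 10 months, Hoxc4 and Hoxc5 rose and fell together. Hoxc5 had 21, 40, 3 and 14 counts in F1 to F4 and 9, 12, 2 and 16 in M1 to M4, in nearly the order of Hoxc4. Over CPM, Pearson's r was 0.916 (exact permutation p = 0.000198, adjusted over 5 relations 0.000992) and Spearman's rho 0.976 (p = 0.000397), and r was 0.870 without F3 and M3, the 2 libraries farthest from the median of Hoxc4. Hoxc4 went against the projection neuron level, a mean of log2 CPM, (r = -0.803, exact permutation p = 0.0102, adjusted 0.0254; rho = -0.881, p = 0.00724; r = -0.886 without F3 and M3). No relation was shown with Hoxc6 (r = 0.382, exact permutation p = 0.335; rho = 0.190, p = 0.665; r = -0.441 without F3 and M3), Hoxa7 (r = 0.307, p = 0.480; rho = 0.429, p = 0.299; r = 0.440) or the thalamus level (r = 0.539, p = 0.160; rho = 0.333, p = 0.428; r = 0.704). These relations were looked at after the Hoxc4 values were seen.

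Tbx21, a T-box gene of immune cells that missed the count rule, had 92 counts in the 8 Q92 libraries of 10 months and 19 in the 16 wild types. Of the 92 counts, 80 came from 1 library. It was singled out after its values were seen.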
